A study of Mus musculus with 6 samples.

Results

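The genes described here take up or make the small organic solutes with which cells balance their volume, above all myo-inositol. They are 9 of the 54532 genes in the count table: the solute carriers Slc5a3, Slc6a6 and Slc6a12, the inositol enzymes Isyna1, Impa1 and Impa2, the aldose reductase gene Akr1b3, the transcription factor gene Nfat5 and the channel subunit gene Lrrc8a. They were chosen by name, with the count differences between baicalin and DMSO in these same libraries already known, so their differences are given as a description and not as a test. All 9 names matched 1 row each. All 9 also had enough reads for the fit across genes, Slc6a12 only through the baicalin group, where it is higher.

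The samples are 3T3 cells, a mouse fibroblast line, labelled as adipocytes of wild-type genotype. Of the 6 samples, 3 received DMSO, the solvent, and 3 received baicalin, a flavone glucuronide, at 200 µM. The subline, how and whether fat cell differentiation was induced, the treatment time and whether the 3 samples of a group were separate cultures were not given in the sources used here. Any p-value therefore measures only the spread among these samples, and part of it may be technical.

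Myo-inositol is the head group of the phosphoinositides, and together with taurine, betaine and sorbitol it is one of the organic osmolytes of mammalian cells. A cell can import it with sodium, through the transporter that Slc5a3 encodes, or make it from glucose 6-phosphate, through the synthase that Isyna1 encodes and then an inositol monophosphatase. NFAT5, also known as TonEBP, is the transcription factor of the response to high tonicity, and Slc5a3, Slc6a6, Slc6a12 and Akr1b3 are textbook targets of it. It acts through a DNA element called TonE. Osmolytes leave swollen cells through the volume-regulated anion channel, of which LRRC8A is the obligatory subunit.

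Library totals ran from 16730594 to 18326874 counts. Of 12 markers of mature fat cells 7 were lower, 1 higher and 1 not called, and 3 were too low to test: Lep, Slc2a4 and Adrb3, with 2, 6 and 3 reads in all. Adipoq, which encodes adiponectin, had 97 reads in the 6 libraries, 90 in DMSO and 7 in baicalin. Other markers of the list were abundant in DMSO: Lpl, the lipoprotein lipase gene, at 1443 CPM, the fatty acid binding protein gene Fabp4 at 430 CPM and the lipid droplet gene Plin4 at 429 CPM. These fell to 491, 298 and 151 CPM in baicalin. Lipe, the 1 marker called higher, rose from 59.0 CPM in DMSO to 89.2 CPM in baicalin. Summed as CPM, counts scaled to a common library size, the 12 markers stood at 2281 to 2481 CPM in DMSO and 1034 to 1066 CPM in baicalin. Of 9 fibroblast markers 3 were higher and 5 lower, with sums of 26070 to 27040 and 23320 to 24410 CPM. Markers of macrophages and of endothelium were near 0. Those of macrophages summed to 1.79 to 2.36 CPM in DMSO and 2.99 to 4.89 CPM in baicalin, those of endothelium to 0.05 to 0.55 CPM. Ptprc, Adgre1, Itgam, Pecam1, Cdh5, Kdr and Tek had at most 8 reads each. Of the remaining macrophage markers Cd68 (199 reads in all) was called higher in baicalin, at a log2 fold change of 1.08. Csf1r (99 reads) was not called, although its groups did not overlap. In bulk RNA a smaller number of cells of a type and less RNA per cell cannot be told apart, and the part that the fall of the fat cell markers has in the differences below was not tested.

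The members did not move as a block. The inositol transporter transcript Slc5a3 was 3.39-fold lower in baicalin, while that of the inositol synthase, Isyna1, was 3.12-fold higher. Nfat5 and Impa2 were lower by 1.72-fold and 1.71-fold, and the taurine transporter Slc6a6 by 1.18-fold. Akr1b3 was 1.51-fold higher, and Slc6a12 2.20-fold higher at a level near the limit of detection. Impa1 and Lrrc8a were not called. A gene is called where edgeR's quasi-likelihood test gave a Benjamini-Hochberg adjusted p under 0.05 over all 13728 genes tested.

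By this rule 7 of the 9 members were called, 3 higher and 4 lower. Among all tested genes 67.7% were called, 33.6% higher and 34.1% lower, and since the members were chosen with this contrast known, nothing is read from their count. The 3 baicalin and the 3 DMSO libraries did not overlap for 7 members, against 70.2% of all tested genes. The median log2 fold change of the members was -0.13, beside 0.00 over all tested genes. Values were scaled by the trimmed mean of M-values (TMM). With library size alone the median over all genes lay at -0.13, and 3472 genes were higher and 5811 lower in place of 4618 and 4676. In that scaling Slc5a3 stood at -1.89, Isyna1 at 1.51, Lrrc8a at -0.008 and Impa1 at -0.26, the last called lower.

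Promoter windows, from 250 bases before to 50 after a RefSeq transcription start (build GRCm38.p6), were used for 5 members. None was used for Slc6a6, Akr1b3, Impa1 and Impa2. Slc5a3 and Isyna1 are shown because they are the inositol genes that differed most, in opposite directions. The first window of Slc6a12 is shown because it holds the only TonE match of the 9 windows. Each reads 5′ to 3′ on the plus strand, with matches on either strand to TonE, to TGANNNNGC (the core of the NRF2 element) or to GCGTG (the core of the dioxin response element) in capitals. The Slc5a3 window is chr16:92058072-92058371, that of Isyna1 chr8:70594231-70594530 and that of Slc6a12 chr6:121342324-121342623.
Slc5a3: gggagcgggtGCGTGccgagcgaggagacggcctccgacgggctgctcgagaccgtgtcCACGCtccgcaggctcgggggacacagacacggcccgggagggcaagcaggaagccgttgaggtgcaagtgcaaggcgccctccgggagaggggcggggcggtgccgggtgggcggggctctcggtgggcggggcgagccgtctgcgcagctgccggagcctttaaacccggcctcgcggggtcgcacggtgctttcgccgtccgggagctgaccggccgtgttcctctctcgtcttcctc
Isyna1: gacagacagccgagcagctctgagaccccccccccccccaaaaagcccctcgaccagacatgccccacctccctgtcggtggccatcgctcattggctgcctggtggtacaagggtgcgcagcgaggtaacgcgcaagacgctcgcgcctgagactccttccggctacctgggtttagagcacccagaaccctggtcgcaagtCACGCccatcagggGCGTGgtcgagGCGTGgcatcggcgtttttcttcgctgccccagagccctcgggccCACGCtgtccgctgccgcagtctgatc
Slc6a12: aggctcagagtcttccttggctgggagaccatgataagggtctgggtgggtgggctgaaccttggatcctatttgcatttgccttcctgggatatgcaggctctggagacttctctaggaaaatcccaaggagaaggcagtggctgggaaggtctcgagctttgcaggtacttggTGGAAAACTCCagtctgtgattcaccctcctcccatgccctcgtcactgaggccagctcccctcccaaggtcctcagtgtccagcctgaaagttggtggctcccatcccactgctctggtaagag

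In these letters the Slc5a3 window holds 2 matches to GCGTG on either strand, which begin 240 and 191 bases before the start. The Isyna1 window holds 4, of which 3 begin 47, 33 and 22 bases before the start and 1 lies 23 bases after it. The Nfat5 window holds 1, and those of Lrrc8a and Slc6a12 none. A match to GCGTG is present in 32.4% of the 32851 windows of this length, one to TGANNNNGC in 41.3% and one to TonE in 6.75%. TGANNNNGC was matched in the Lrrc8a window and in the other 4 windows of Slc6a12, and not in those of Slc5a3, Isyna1 and Nfat5. In Lrrc8a the 2 matches overlap each other. The TonE match of Slc6a12 reads TGGAAAACTCC and begins 75 bases before the start. The windows of Slc5a3, Nfat5, Lrrc8a and Isyna1 are rich in GC (73.3%, 72.0%, 70.0% and 66.0%, against a median of 52.7% over all windows) and hold 38, 31, 32 and 24 CpG dinucleotides, against a median of 7. GCGTG itself holds a CpG, and its share among windows equally rich in CpG was not computed. A match is a stretch of letters and not evidence of binding, and its absence says only that the letters are not in this window.

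Slc5a3 encodes the sodium-coupled myo-inositol transporter (ENSMUSG00000089774, chromosome 16, 92058322 to 92087473, plus strand, mm10). Under DMSO it drew 11652, 12050 and 11321 reads, and under baicalin 3198, 3371 and 3263. In CPM these were 631, 689 and 620 in DMSO and 193, 191 and 190 in baicalin. Every baicalin library lay below every DMSO library, and the highest baicalin value was under the lowest DMSO value by far more than the spread of either group. The coefficient of variation between libraries was 5.72% in DMSO and 0.674% in baicalin. The log2 fold change was -1.76 (SE 0.04, n = 3 each). Among the 6853 tested genes with a negative fold change 458 had a larger one.

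Slc5a3 shares its start with Mrps6, a gene for a protein of the small mitochondrial ribosomal subunit. The annotation gives Slc5a3 a first exon of 159 bp, all of which lies within an exon of Mrps6 on the same strand, and a second exon of 10754 bp (92076720 to 92087473), none of which is shared. The RefSeq start windows of both genes have 286 of 300 bases in common. Mrps6 stood at 69.8, 67.8 and 66.6 CPM in DMSO and at 55.0, 51.5 and 48.2 CPM in baicalin, a log2 fold change of -0.40 (SE 0.05). Both genes were thus lower in baicalin, Slc5a3 by the larger fold. With trends on length and GC removed they stood nearer each other, Slc5a3 at -1.26 and Mrps6 at -0.64. Gm49711, which shares the same first exon, had 9 reads in all 6 libraries. How reads of the shared exon were assigned was not given in the sources used here.

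By the distance between centred log2 CPM profiles over the 6 libraries, the 3 genes most like Slc5a3, of 9686 genes with a symbol and at least 5 CPM, were Ghr (the growth hormone receptor), Cped1 and Trp53inp1. Their distances were 0.08, 0.11 and 0.12 log2 units, and their folds 3.32, 3.47 and 3.22 lower. Of the members, Nfat5 and Impa2 were nearest, at 1.21 and 1.22 log2 units, and Isyna1 farthest, at 4.18. With 2 groups of 3 this likeness is mostly a likeness of fold change.

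Isyna1 encodes inositol-3-phosphate synthase, which carries out the first and rate-limiting step of inositol synthesis (ENSMUSG00000019139, chromosome 8, 70594373 to 70597290, plus strand). Its reads were 2143, 1805 and 2229 under DMSO, against 5965, 6194 and 6103 under baicalin. In CPM this was 116, 103 and 122 against 359, 350 and 355. The 2 groups lay far apart, with DMSO replicate 2 the lowest library. The log2 fold change was 1.64 (SE 0.05, n = 3 each), and 280 of the 6875 tested genes with a positive fold change had a larger one.

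The monophosphatases that complete synthesis and recycle inositol differed from each other. Impa2 (ENSMUSG00000024525, chromosome 18) had 638, 674 and 659 reads under DMSO, against 383, 353 and 360 under baicalin, with no overlap between the groups. Its log2 fold change was -0.77 (SE 0.08). It shares 1264 bp of exon with the opposite-strand transcript B430212C06Rik, which had 101 reads beside the 3067 of Impa2. Impa1 (ENSMUSG00000027531, chromosome 3, 10311956 to 10331439, minus strand) had 379, 436 and 449 reads under DMSO, against 337, 379 and 381 under baicalin. Its groups overlapped, since DMSO replicate 1 was at 20.5 CPM, within the range of 20.3 to 22.2 CPM in baicalin, and its log2 fold change of -0.13 (SE 0.08) was not called. Without DMSO replicate 1 it was -0.21 and was called.

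Among the carriers of other osmolytes, the taurine transporter gene Slc6a6 (ENSMUSG00000030096, chromosome 6, 91684053 to 91759066, plus strand) had the smallest of the called differences. It stood at 356, 364 and 365 CPM in DMSO and 314, 302 and 306 CPM in baicalin. The groups did not overlap, and the libraries within each were tight (coefficients of variation of 1.35% and 2.02%). The log2 fold change was -0.23 (SE 0.04), and it was -0.07 and not called with a trend on transcript length removed. Slc6a12, which encodes the betaine and GABA transporter BGT1 (ENSMUSG00000030109, chromosome 6, 121343076 to 121365775, plus strand), had 11, 8 and 8 reads under DMSO, against 19, 24 and 14 under baicalin. These counts did not overlap, but they are few, and the log2 fold change of 1.14 carries an SE of 0.40. Its call was lost without baicalin replicate 2 (log2 fold change 0.98) and with DESeq2 (1.17).

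Akr1b3, the aldose reductase that turns glucose into sorbitol (ENSMUSG00000001642, chromosome 6, 34302434 to 34317478, minus strand), had 9578, 7849 and 10052 reads under DMSO, against 12829, 13711 and 12782 under baicalin. In CPM these were 519, 449 and 551 against 772, 775 and 744. The groups did not overlap, although the DMSO libraries spread more (coefficient of variation 10.3%) than the baicalin libraries (2.19%). DMSO replicate 2 was the lowest for Akr1b3, as it was for Isyna1, and the highest for Slc5a3, Nfat5 and Impa2. The log2 fold change was 0.59 (SE 0.06). The gene has close paralogs, and how reads that fit more than 1 copy were counted was not given in the sources used here.

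Nfat5 (ENSMUSG00000003847, chromosome 8, 107293470 to 107379517, plus strand) had 19914, 20279 and 20505 reads under DMSO, against 10704, 11179 and 11747 under baicalin. This was 1079, 1160 and 1124 CPM against 644, 632 and 684 CPM. All 3 baicalin libraries lay well below the DMSO libraries, and the log2 fold change was -0.78 (SE 0.04). Its size depends on the treatment of transcript length and GC, and was -0.17 with trends on both removed. Lrrc8a (ENSMUSG00000007476, chromosome 2, 30237715 to 30263790, plus strand) had 512, 494 and 529 reads under DMSO, against 563, 512 and 508 under baicalin. In CPM its groups overlapped, with baicalin replicate 2 at 28.9 CPM inside the DMSO range of 27.7 to 29.0 CPM. Its log2 fold change of 0.12 (SE 0.07) was not called. Of its 4308 bp of exon 91 bp are shared with the opposite-strand 1700084E18Rik (125 reads) and 2853 bp with the same-strand Gm28035 (1 read). How reads of these shared stretches were assigned was not given in the sources used here, so the level of Lrrc8a is uncertain.

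**Figure D1:**
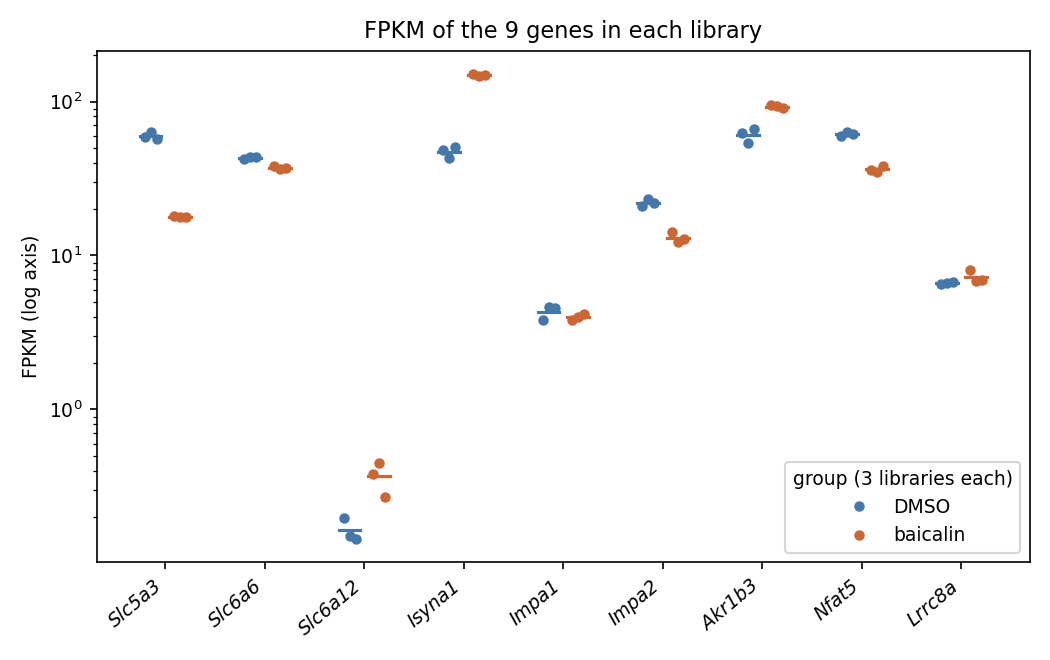
The vertical axis gives FPKM on a log scale for the 9 genes along the horizontal axis. Points are single libraries, 3 per group, and bars are group means. Isyna1 lies near 148 in baicalin and near 47.1 in DMSO, while Slc5a3 lies near 17.8 in baicalin and near 59.7 in DMSO.

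Levels of different genes were compared in FPKM, the authors' value scaled by gene length and sequencing depth. In DMSO, Nfat5 (61.4 ± 2.14), Akr1b3 (60.8 ± 6.24) and Slc5a3 (59.7 ± 3.41) led, and the ranges of neighbours in this order overlapped (SD, n = 3). Isyna1 (47.1 ± 3.98) and Slc6a6 (43.1 ± 0.49) followed, again with overlapping ranges. Impa2 (22.1 ± 1.19), Lrrc8a (6.63 ± 0.13), Impa1 (4.33 ± 0.45) and Slc6a12 (0.16 ± 0.03) came next, each range clear of the next.

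In baicalin the order was led by Isyna1 (148 ± 2.70) and Akr1b3 (92.7 ± 2.14), with no overlap between them. Slc6a6 (37.0 ± 0.95) and Nfat5 (36.2 ± 1.54) overlapped, and Slc5a3 (17.8 ± 0.21) stood below both. Impa2 (13.1 ± 1.04), Lrrc8a (7.28 ± 0.68), Impa1 (3.99 ± 0.17) and Slc6a12 (0.37 ± 0.09) kept their places. Lrrc8a, whose groups overlapped in CPM, did not overlap in FPKM by a narrow margin (at most 6.77 in DMSO and at least 6.80 in baicalin). Isyna1 was above 93.2% of all tested genes in DMSO and above 97.6% in baicalin, and Slc5a3 above 94.8% and 78.3%. The lengths behind these FPKM values equal the exon lengths of GENCODE M21 for 8 of the members. For Impa2 they imply 1661 bp where that annotation has 5367 bp, so the place of Impa2 in the order depends on the gene model. The places of the other members rest on the gene model too. That of Lrrc8a also depends on how reads of the exon it shares with Gm28035 were assigned. For Akr1b3 the exons of 6 annotated transcripts merge to 8384 bp, beside a coding length of 948 bp. Which of these transcripts the cells expressed was not tested.

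Within each library the ratio of Isyna1 to Slc5a3 FPKM was 0.82, 0.67 and 0.88 in DMSO and 8.36, 8.23 and 8.38 in baicalin. In FPKM the synthase transcript was thus below that of the transporter in all 3 DMSO libraries and above it in all 3 baicalin libraries. The order in DMSO rests on the gene lengths behind FPKM, 2436 bp for Isyna1 and 10913 bp for Slc5a3. The ratio of Slc6a6 to Slc5a3 was 0.73, 0.68 and 0.76 in DMSO and 2.11, 2.05 and 2.08 in baicalin. Summed, Impa1 and Impa2 stood at 26.4 ± 1.58 FPKM in DMSO and 17.1 ± 0.94 in baicalin (SD, n = 3), of which Impa2 made up 83.6% ± 0.94 and 76.6% ± 1.96. These values rest on the shorter Impa2 length. Rescaled to the annotated length, an alternative chosen after seeing the data, the sum was 11.2 ± 0.78 and 8.03 ± 0.24 FPKM, and the Impa2 share 61.3% ± 1.64 and 50.3% ± 2.77.

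The members differ in transcript length and base composition, and so did the response of all genes. Tested genes were cut into 5 groups of about equal size by exon length, and again by GC. In the group of longest genes (over 7256 bp, 2743 genes) the median log2 fold change was -0.23, and 55.4% were called lower. In that of the shortest it was 0.16, with 37.6% called higher. In the group poorest in GC (up to 44.4%) the median was -0.36, and in the richest it was 0.19. Nfat5 has 18378 bp of exon at 43.3% GC and Slc5a3 10913 bp at 41.9%, so both stand in the longest and the most GC-poor group. Isyna1 has 2436 bp at 61.1% GC and stands in the second shortest and the most GC-rich group. Akr1b3, with 8384 bp and 50.6% GC, was higher although it is among the longest by merged exon length. That length joins the exons of 6 annotated transcripts, beside a coding length of 948 bp. The place of Akr1b3 in this group, and its values with the length trend removed, depend on that length.

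With a lowess trend on exon length removed from each library, the log2 fold change of Nfat5 was -0.34, and once trends on length and GC were both removed it was -0.17. It was still called lower in both, at a far smaller size. Slc6a6 stood at -0.07 with the length trend removed, no longer called, and at -0.18, called, with both removed. Slc5a3 stood at -1.50 and -1.26, Isyna1 at 1.51 and 1.39, Impa2 at -0.74 and -0.84 and Akr1b3 at 0.76 and 0.68. Whether the trends are technical or biological was not tested.

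**Figure D2:**
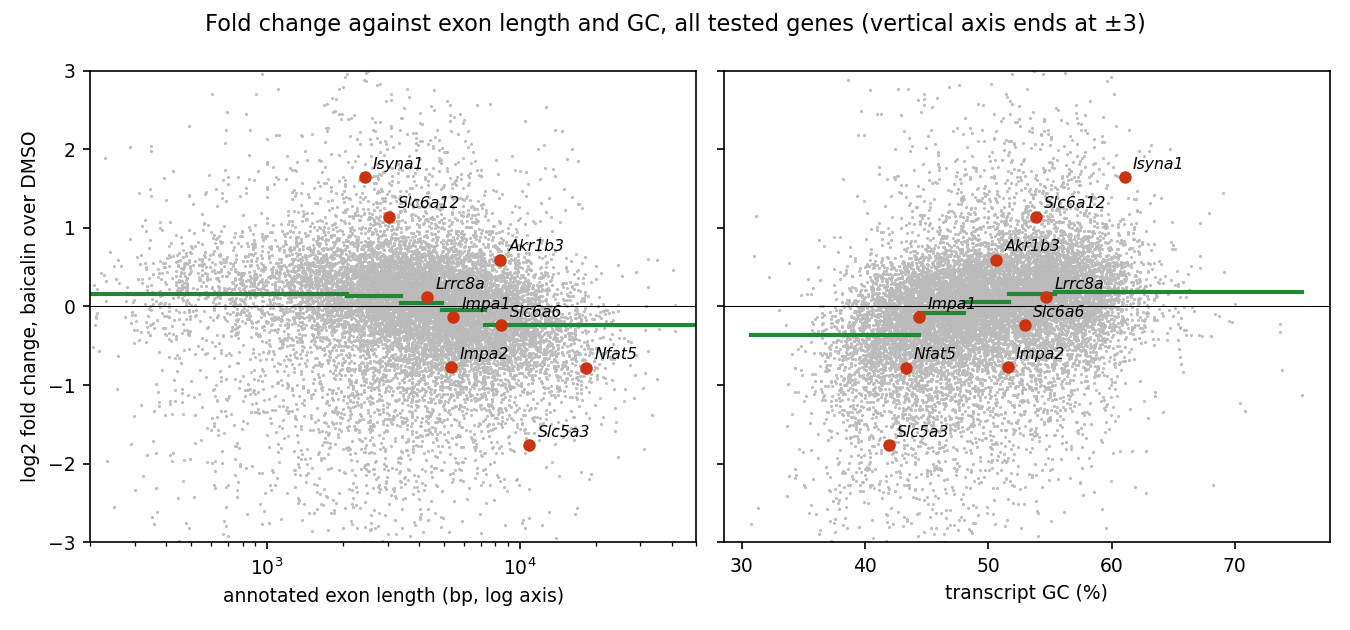
Each grey point is a tested gene, with its log2 fold change on the vertical axis (109 genes lie beyond ±3) and exon length (log axis, left, 52 genes beyond its ends) or transcript GC (right) on the horizontal axis. Green bars are medians of 5 equal groups, from 0.16 in the shortest to -0.23 in the longest, and red points are the 9 members, with Slc5a3 far below and Isyna1 far above the bars.

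**Figure D3:**
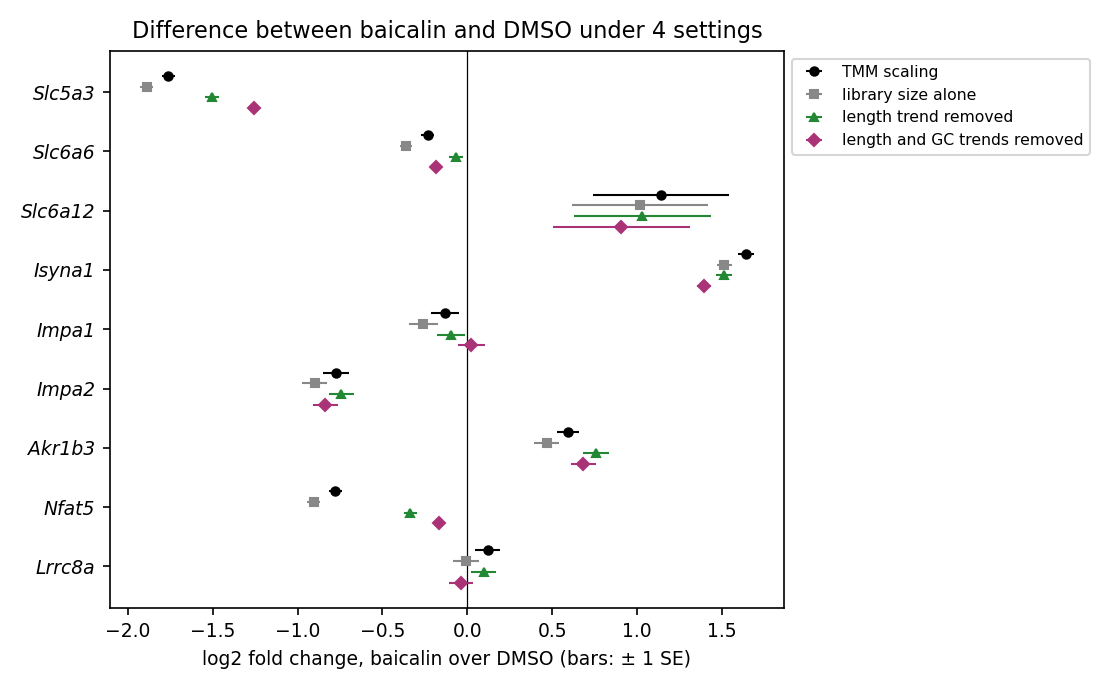
The horizontal axis gives the log2 fold change of baicalin over DMSO with bars of 1 SE for each member, under TMM scaling, library size alone, and removal of the length trend or of the length and GC trends. Nfat5, at -0.78 under TMM scaling, runs from -0.91 with library size alone to -0.17 with both trends removed. Slc5a3 comes no nearer to 0 than -1.26 and Isyna1 no nearer than 1.39.

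Around the members, 74 further genes of osmolyte, inositol and cell volume handling were listed in 9 groups, of which 62 were tested. Of these 26 were higher, 23 lower and 13 not called, and the counts here and in each group below stand beside 67.7% called among all tested genes, 33.6% higher and 34.1% lower. The median of the 62 genes was 0.02 on the log2 scale, beside 0.00 over all tested genes. Once the length and GC trends were removed 27 were higher and 16 lower, and with library size alone 22 and 29.

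For uptake of inositol and its use in phosphoinositides, 2 of 6 tested genes were higher and 3 lower. Cdipt, which joins inositol to CDP-diacylglycerol to make phosphatidylinositol, stood at 66.7 ± 2.55 CPM under DMSO and rose to 109 ± 3.60 (SD, n = 3), a log2 fold change of 0.70 with an edgeR adjusted p of 1.43e-18. The proton-coupled inositol transporter gene Slc2a13 fell from 7.24 ± 0.95 to 4.66 ± 0.36 CPM (1.55-fold). Bpnt1, a nucleotidase related to the monophosphatases, was 1.33-fold higher, a call lost once both trends were removed. The small falls of Impad1 (-0.20) and of Cds2 (-0.09) turned to 0.34 and 0.004 in that setting. Slc5a11, which encodes the second sodium-coupled inositol transporter, and the inositol oxygenase gene Miox were too low to test.

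All 15 genes of inositol phosphate kinases and phosphatases were tested, of which 6 were higher and 6 lower (median 0.25). The inositol hexakisphosphate kinase gene Ip6k3 rose from 4.44 ± 0.25 to 11.7 ± 1.34 CPM (2.63-fold). Itpk1 rose 1.51-fold and Ipmk, the multikinase, 1.42-fold. Ppip5k2, which makes inositol pyrophosphates, fell from 40.5 ± 0.64 to 21.7 ± 1.61 CPM, by 0.90 on the log2 scale and by 0.24 without both trends. Inpp4a, a phosphatase of phosphatidylinositol 3,4-bisphosphate, fell 1.55-fold.

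Taurine is made from cysteine, and 2 of the 3 tested genes of that route were lower. Cdo1, the cysteine dioxygenase gene, fell from 210 ± 12.7 to 104 ± 7.96 CPM (2.03-fold, edgeR adjusted p = 3.1e-18). Csad, the decarboxylase that follows it, fell from 86.0 ± 4.06 to 40.6 ± 2.03 CPM (2.12-fold). Csad shares 278 bp of exon with the opposite-strand gene Zfp740, which has more reads, so its value is uncertain where strand was not used in counting. Ado, which makes hypotaurine from cysteamine, rose 1.30-fold. With length and GC trends removed these differences were -1.24, -1.27 and 0.34.

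Of 7 tested genes that handle betaine, choline and glycerophosphocholine 4 were lower and none was higher, with a median of -0.22. With library size alone all 7 were lower. With the length trend removed 1 was higher and 3 lower, and without both trends 1 was higher and 2 lower. Gdpd5, a phosphodiesterase that degrades the osmolyte glycerophosphocholine, fell from 23.5 ± 1.08 to 6.82 ± 0.75 CPM (3.44-fold). The choline transporter gene Slc44a1 fell 1.42-fold. Gpcpd1 (-0.40) and the choline kinase gene Chka (-0.22) were the other 2 called lower, and stood at 0.09 and 0.002 without both trends. Betaine synthesis by Chdh could not be tested, with too few reads.

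In the polyol group 3 of 5 genes were higher and none lower. They were Akr1b8 (1.27-fold), Akr1b10 (1.18-fold) and the ketohexokinase gene Khk (1.18-fold, with overlapping groups), and with length and GC trends removed Akr1b8 alone of these was still called, at a log2 fold change of 0.09 in place of 0.34. With library size alone 1 of the 5 was higher and 1 lower. Akr1b8 and Akr1b10 are paralogs of Akr1b3, and whether reads were shared among them was not tested. Sord, which oxidises sorbitol to fructose, was at 196 ± 6.45 CPM in DMSO and 196 ± 7.22 in baicalin (log2 fold change 0.00, SE 0.04). It was called lower with library size alone (-0.13) and without both trends (-0.20).

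Among further carriers of amine and amino acid osmolytes, the glycine transporter gene Slc6a9 rose from 11.4 ± 1.34 to 37.5 ± 0.83 CPM (3.29-fold). It shares 46 bp of exon with the opposite-strand gene B4galt2. The differences of Slc6a8, for creatine (0.09), and of Slc38a2, for neutral amino acids (-0.09), were small. With library size alone Slc6a8 stood at -0.04, and with the length trend removed Slc38a2 stood at 0.09.

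The partners of LRRC8A in the anion channel were higher. All 3 tested subunit genes, Lrrc8b, Lrrc8c and Lrrc8d, were called, and were so with length and GC trends removed. Lrrc8d, the subunit known for taurine and drug permeability of the channel, rose from 7.55 ± 0.27 to 25.6 ± 1.15 CPM (3.39-fold, edgeR adjusted p = 4.19e-22). Lrrc8c rose from 19.1 ± 1.08 to 30.1 ± 1.11 CPM (1.57-fold). Lrrc8b had a mean under 5 CPM and is named to complete the group (2.10-fold). In summed FPKM of the 5 subunit genes Lrrc8a made up 65.0% ± 1.05 in DMSO and 50.7% ± 2.88 in baicalin (SD, n = 3), and Lrrc8d made up 5.94% ± 0.38 and 14.5% ± 0.52. These shares depend on how reads of the 2853 bp that Lrrc8a shares with Gm28035 were assigned, which was not given.

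Other genes known to respond to NFAT5 or to osmotic stress were split, with 4 of 9 higher and 3 lower and a median of -0.09. The sign of this median depended on the setting. With the length trend removed 5 were higher and 2 lower (median 0.09), and without both trends 4 and 2 (median 0.22). With library size alone the counts were 4 and 3 (median -0.22). Hspa4l, a chaperone first found in osmotically stressed cells, rose from 28.0 ± 0.55 to 113 ± 2.97 CPM (4.01-fold). Hspa1b rose 1.71-fold and Hspa1a 1.47-fold, and the call of Hspa1a was lost without both trends (0.31). These genes are near-identical copies and their reads cannot be told apart with confidence. The growth factor gene Vegfc fell from 49.1 ± 2.34 to 28.1 ± 1.62 CPM (1.75-fold), and Sgk1, a kinase induced by hypertonicity, from 103 ± 4.87 to 64.3 ± 0.14 CPM (1.61-fold). Neither this group nor the members Slc5a3, Slc6a6, Slc6a12 and Akr1b3 moved in a single direction.

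**Figure D4:**
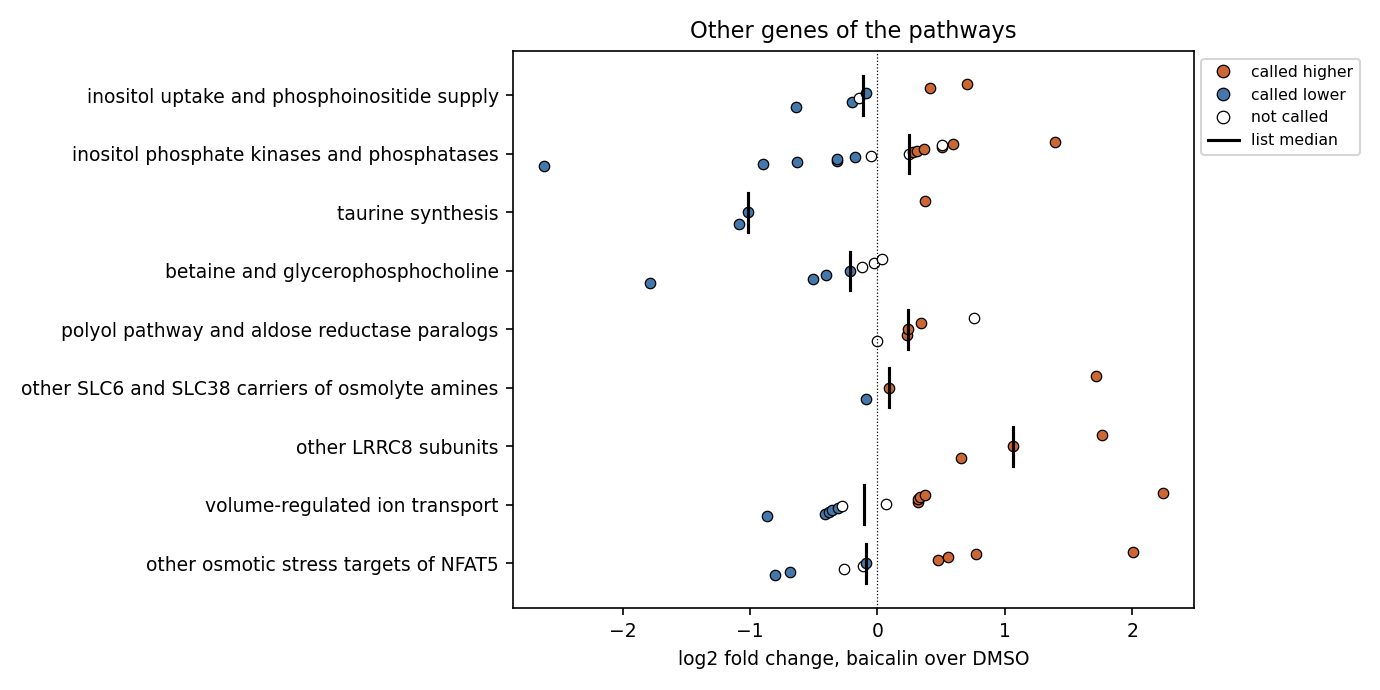
Each point is 1 tested gene, placed by its log2 fold change of baicalin over DMSO on the horizontal axis and by its group on the vertical axis. Filled points passed the threshold (orange higher, blue lower), open points did not, and bars are medians, from -1.02 for taurine synthesis to 1.07 for the other LRRC8 subunits.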

How the data were processed

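Counts of reads per gene for 54532 genes in 6 libraries of poly-A RNA were deposited by the authors. The series design text names featureCounts 1.5.0-p3 as the counter, and the submitters' processing notes name build mm10. It also says that the authors derived their FPKM values from count and gene length. Aligner, annotation and strandedness were not given in the sources used here. Libraries were grouped by treatment, 3 DMSO and 3 baicalin. Every pair within a group differed by more than counting noise (chi-square per degree of freedom from 2.83 to 4.35), so no library was treated as deposited again under another name. This does not show separate cultures.

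Genes passing filterByExpr (13728) entered edgeR 4.0.16 under R 4.3.3, with TMM factors, robust quasi-likelihood fits, treatment as the only term and Benjamini-Hochberg adjustment over all of them, and called at an adjusted p under 0.05. The biological coefficient of variation was 4.61%. CPM values use the same factors. The test was checked on simulated counts, which cannot check the scaling, the length and GC trends or whether the samples were separate cultures. Symbols, coordinates (mm10) and exon lengths come from GENCODE M21, whose identifiers cover 54495 of the genes, and promoter windows from RefSeq on GRCm38.p6. TonE was searched by its degenerate consensus. The members, lists and motifs were chosen with earlier results of these data known.

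Besides all members, the text names in each list up to 5 called genes of at least 5 CPM on average with the largest fold change, genes sharing exons with a member, the 3 genes most like Slc5a3 in profile, and the cell type markers. Genes outside this rule, which are Lrrc8b, Sord, the opposite-strand partners of listed genes and those too low to test, were named after their values were seen. Alternatives were DESeq2 1.42.0, limma-voom (limma 3.58.1), RLE factors, library size alone, 2 other count filters, the replicate number as a block, lowess trends on exon length and GC removed (span 0.3), limma on log2(FPKM + 1) or log2(FPKM + 0.1), and leaving out each library. Python 3.11.15 was used for tables and figures.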

Additional observations from a re-analysis of the deposited data

How the results depend on the processing

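Over the 19 alternatives, 6 to 8 members were called (7 in the fit described), 43 to 51 pathway genes (49) and 7847 to 9567 genes in all (9294). Slc5a3, Isyna1, Nfat5, Impa2 and Akr1b3 kept their direction and call in every one, with Slc5a3 from -1.89 to -1.26 on the log2 scale, Isyna1 from 1.39 to 1.70, Nfat5 from -0.91 to -0.17, Impa2 from -0.90 to -0.71 and Akr1b3 from 0.47 to 0.76. Slc6a12 dropped out of the stricter count filter and of the FPKM filter, and was also not called on log2(FPKM + 1) without a filter (0.23). Its log2 fold change ran from 0.98 to 1.33 on leaving out single libraries. With the replicate number as a block 9391 genes and 7 members were called. Same-numbered libraries correlated at 0.08, 0.09 and -0.003 in their deviations from the group means, and not every library correlated best with its own number, so the numbers are not taken to pair the samples. With the block and the length trend removed Slc6a6 was not called (-0.07).

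Some differences changed sign, among them those of Wnk1 (-0.41 in the fit described) and Gpcpd1 (-0.40). With library size alone Lrrc8a stood at -0.008 and Slc6a8 at -0.0379. With length and GC trends removed Impa1 stood at 0.024, Lrrc8a at -0.0373, Slc6a8 at -0.0221, Khk at -0.0512, Cds2 at 0.0041, Chka at 0.0022, Gpcpd1 at 0.0882, Impad1 at 0.34, Slc38a2 at 0.22 and Wnk1 at 0.14. With the length trend removed, alone and then with the replicate block, Cds2 was at 0.1035 and 0.1034, Chka at 0.074 and 0.0692, Slc38a2 at 0.09 and 0.0907, and Wnk1 at 0.0965 and 0.0963. The cause was not tested. Depth limits Slc6a12 alone among the members, with 84 reads in all.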

Other observations

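Ion and water transport that sets cell volume was a further group, with 5 of 12 genes higher and 5 lower. The water channel gene Aqp1 was at 238.5 ± 19.9 CPM under DMSO and rose 4.73-fold to 1127 ± 10.4 (SD, n = 3, edgeR adjusted p = 8.07e-34). It stood at a log2 fold change of 1.98 with length and GC trends removed, against 2.24 before. Wnk4, a chloride-sensing kinase of the cation-chloride cotransporters, fell from 10.3 ± 0.28 to 5.63 ± 0.38 CPM (1.83-fold), while its relative Wnk1 had a log2 fold change of -0.41 that turned to 0.14 with those trends removed. Stk39, the kinase that WNK kinases activate, rose 1.29-fold. Ano6, a calcium-activated scramblase and channel, fell by 0.38 on the log2 scale, a call lost with the length trend alone removed (-0.08). With the length and GC trends removed 8 of the 12 genes were higher and 2 lower.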
